A study of Mus musculus with 53 samples.

Results

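The Fbxw genes encode F-box proteins that carry WD40 repeats. All rows of the count table whose symbol is Fbxw followed by a number were taken, which gave 9 of 12372 genes: Fbxw2, Fbxw4, Fbxw5, Fbxw7, Fbxw8, Fbxw9, Fbxw11, Fbxw15 and Fbxw17. The group was chosen around Fbxw15, which had been selected on its difference between SCA3 and wild-type mice in these same libraries. Its genotype differences are therefore given as a description with no test, whereas the other 8 genes were taken by their symbol alone and keep their FDR. Whole brains of male C57BL/6 mice were dissected at 17.5 months of age (74 to 77 weeks) into brainstem, cerebellum, cortex and striatum. SCA3 mice carried the MJD84.2 transgene, a full-length human ATXN3 under its own promoter whose CAG repeat is expanded, beside both mouse Atxn3 copies, and their controls were wild-type mice without it. Each mouse gave at most 1 library per region, with 8 wild-type and 6 SCA3 libraries for brainstem, 7 and 6 for cerebellum, 7 and 6 for cortex, and 8 and 5 for striatum. No mouse was treated.

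An SCF ubiquitin ligase is assembled from the adaptor Skp1, the scaffold Cul1, the RING protein Rbx1 and an interchangeable F-box protein. The F-box binds Skp1, and in the Fbxw class the WD40 repeats fold into a propeller that recognises the substrate, often a phosphorylated degron. In brain the class is known mainly through Fbxw7 and the beta-TrCP proteins, which limit cyclin E, Myc, Jun, Notch, the SREBP transcription factors and beta-catenin. Ataxin-3, the protein expanded in SCA3, is a deubiquitinating enzyme and acts on the opposite side of the same system.

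Fbxw15 differs from the other 8 genes in its genomic setting. The RefSeq annotation of GRCm38 lists 24 Fbxw genes, of which 15 lie in a single cluster on chromosome 9 (positions 109139454 to 109790660). Fbxw15 (chr9:109552602-109568262, minus strand) was the only gene of that cluster in the table, in which genes had to average above a minimum level. The coding sequences of 13 neighbouring copies could be aligned with the 1398 coding bases of Fbxw15, which encode 466 residues. They were identical at between 80.9% (Fbxw14) and 88.7% (Fbxw25) of the aligned bases, whereas the other 8 genes of the table shared between 57.9% (Fbxw4) and 61.7% (Fbxw11). The plot of coding identity shows this gap between the cluster and the remaining family.

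**Figure D1:**
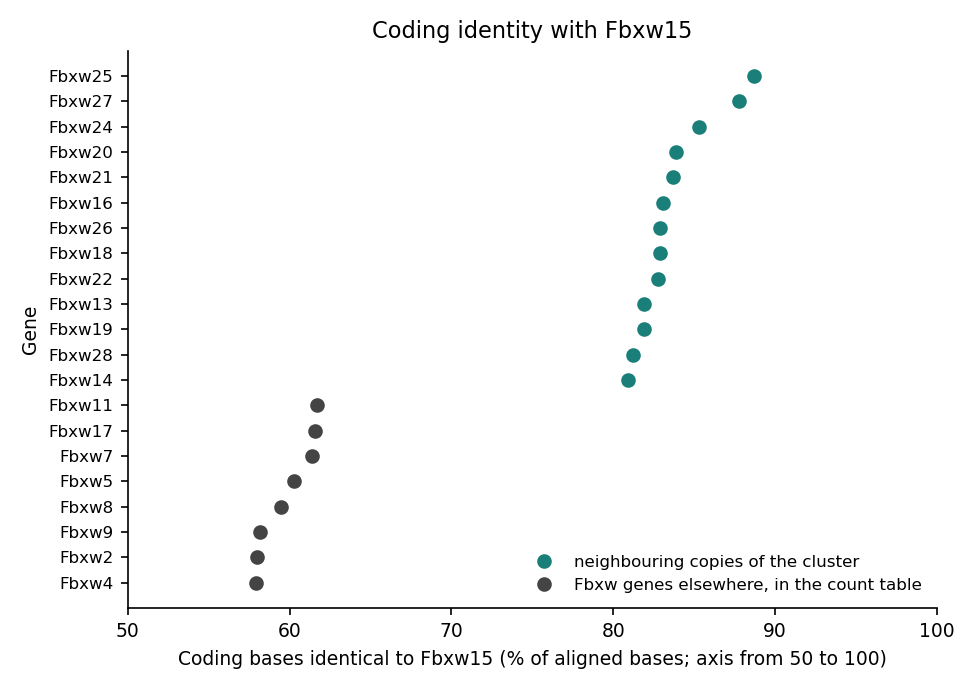
Coding bases identical to Fbxw15, in percent of aligned bases (x axis from 50 to 100), for 13 neighbouring copies on chromosome 9 and the 8 other Fbxw genes of the count table. The neighbouring copies lie between 80.9% and 88.7%, the genes elsewhere between 57.9% and 61.7%.

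Reads were paired and 125 bases long, and reads with more than 1 alignment had been discarded, so the likeness of Fbxw15 to its copies was measured over stretches of that length. The stretch of its coding sequence (bases 429 to 553, counted from the start codon, GENCODE vM21 transcripts) that is nearest to any copy is shown with the same positions of 3 copies. Capitals mark bases that differ from Fbxw15.
Fbxw15: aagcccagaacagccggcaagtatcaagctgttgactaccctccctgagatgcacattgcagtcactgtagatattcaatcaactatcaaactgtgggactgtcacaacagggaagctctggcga
Fbxw27: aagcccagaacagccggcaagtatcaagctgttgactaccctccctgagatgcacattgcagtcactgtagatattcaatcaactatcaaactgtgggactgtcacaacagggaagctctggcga
Fbxw21: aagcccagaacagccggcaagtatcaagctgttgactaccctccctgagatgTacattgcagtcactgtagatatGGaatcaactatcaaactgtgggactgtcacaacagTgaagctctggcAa
Fbxw25: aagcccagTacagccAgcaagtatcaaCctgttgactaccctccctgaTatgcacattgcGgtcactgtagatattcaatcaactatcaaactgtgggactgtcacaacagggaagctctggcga
Fbxw27 has the same bases here, so a read from this stretch could be placed through its mate only, and Fbxw21 and Fbxw25 each differ at 5 positions. The opposite case is the stretch farthest from its nearest copy (bases 918 to 1042), where Fbxw25 differs at 28 positions.
Fbxw15: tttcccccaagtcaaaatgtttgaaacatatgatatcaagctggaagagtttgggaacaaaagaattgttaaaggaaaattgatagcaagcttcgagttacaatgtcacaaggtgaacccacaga
Fbxw25: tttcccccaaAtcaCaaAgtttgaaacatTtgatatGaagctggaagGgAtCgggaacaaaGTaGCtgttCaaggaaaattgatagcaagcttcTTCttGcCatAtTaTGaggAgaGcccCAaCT
Over all 1274 coding stretches of this length the median number of differences from the nearest copy was 11. Only 7 of them matched a copy completely, and 55 (4.32%) differed from one at 2 or fewer positions. Across its annotated transcripts, 3.22% of the 125-base stretches of Fbxw15 also occurred exactly in transcripts of another gene, namely Fbxw27 and the antisense gene Gm42756. The corresponding shares were 28.8% for Fbxw8 (antisense gene Gm9754), 13.2% for Fbxw4 (Gm17018), 2.17% for Fbxw9 (A230103J11Rik) and 0% for Fbxw2, Fbxw5, Fbxw7, Fbxw11 and Fbxw17. None of these partner genes was in the table. The values of Fbxw4, Fbxw8, Fbxw9 and Fbxw15 are uncertain to that extent. Strand was not recorded, so it could not separate the reads of the antisense genes Gm9754 and Gm42756 either.

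The 53 libraries held between 31.7 and 76.7 M counts, and their RNA integrity numbers (RIN) ranged from 5.7 to 9. Region markers followed the labels in part. The summed granule cell markers reached at least 2101 CPM (read counts scaled to a common library total) in every cerebellar library and at most 191 CPM elsewhere. The 10 measured striatal projection neuron markers overlapped between striatum (lowest sum 2092 CPM) and cortex (highest 3852 CPM), as did the 4 measured cortical glutamatergic markers (lowest 438 CPM in cortex, highest 721 CPM in striatum). Only 1 of the 8 genes listed for brainstem was in the table. Its wild-type median was 10.8 CPM in brainstem and 23.5 CPM in striatum. It did not mark brainstem here, so that label could not be checked in the same way. Wild-type striatal libraries varied in thalamic markers from 186 to 2705 CPM, against 184 to 465 CPM in SCA3 striatum. In whole tissue, fewer cells of a type and less RNA per cell cannot be told apart. All SCA3 mice were of 1 transgenic line, so effects of the insertion site and of ataxin-3 cannot be told apart.

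Fbxw15, an F-box protein known to bind the histone acetyltransferase Kat7 (HBO1), was a low-abundance transcript. Its mean over all libraries was 5.82 CPM, rank 513 of 12372 genes from the lowest, and between 64 and 1251 reads supported it in a library. In wild-type brainstem the 8 libraries ranged from 7.45 to 14.1 CPM with a median of 11.7 CPM. Wild-type striatum was at the same height, from 8.36 to 18.3 CPM with a median of 11.1 CPM. Wild-type cortex lay lower, between 3.41 and 6.71 CPM with a median of 5.42 CPM. Wild-type cerebellum was lowest, between 1.74 and 5.18 CPM with a median of 3.04 CPM.

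Differences between wild-type regions were estimated with the mouse as a block. They are descriptions with no test, because these libraries are also an arm of the contrasts that selected the gene, and brainstem and striatum held the levels that lifted its mean above the minimum of the table. Brainstem and striatum were close to each other (log2 difference -0.10, SE 0.19). Striatum exceeded cortex 2.27-fold (log2 difference of cortex minus striatum -1.18, SE 0.20), and brainstem exceeded cortex 2.11-fold (1.08, SE 0.20). Cortex in turn exceeded cerebellum 1.69-fold (cerebellum minus cortex -0.76, SE 0.21). The widest steps were those to cerebellum, 3.56-fold from brainstem (1.83, SE 0.20) and 3.83-fold from striatum (cerebellum minus striatum -1.94, SE 0.20). The order was thus striatum and brainstem, whose difference was smaller than its SE, then cortex, then cerebellum.

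In SCA3 mice Fbxw15 was lower in the mean of each region. In brainstem the 6 SCA3 libraries ranged from 2.41 to 4.35 CPM with a median of 3.14 CPM. All 6 lay below the lowest wild-type library, and the mean fell from 10.98 ± 2.43 (SD, n = 8) to 3.17 ± 0.721 CPM (n = 6). The log2 fold change was -1.80 (SE 0.20), or 28.8% of the wild-type level, the lowest value of all 12372 genes in brainstem. In striatum the 5 SCA3 libraries held 3.69, 3.85, 4.29, 4.53 and 5.23 CPM. These too were all below the lowest wild-type library, with means of 11.7 ± 3.2 (SD, n = 8) and 4.32 ± 0.611 CPM (n = 5). The log2 fold change in striatum was -1.44 (SE 0.21), or 36.8% of wild-type, rank 41 of all genes from the lowest.

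The groups overlapped in the regions where the gene was already low. SCA3 cortex ranged from 1.91 to 4.54 CPM with a median of 2.97 CPM, and 5 of 6 libraries lay below the lowest wild-type library. Its log2 fold change was -0.79 (SE 0.21), or 57.9% of wild-type, rank 16 of all genes from the lowest. SCA3 cerebellum ranged from 1.18 to 2.14 CPM with a median of 1.73 CPM, and 3 of 6 libraries lay below the lowest wild-type library. There the log2 fold change was -0.84 (SE 0.21), or 55.7% of wild-type, rank 30 from the lowest. The SCA3 means of brainstem and cortex lay side by side, at 3.17 and 3.04 CPM. Since the gene was selected on these contrasts, the difference between regions in the size of its genotype effect was not tested.

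**Figure D2:**
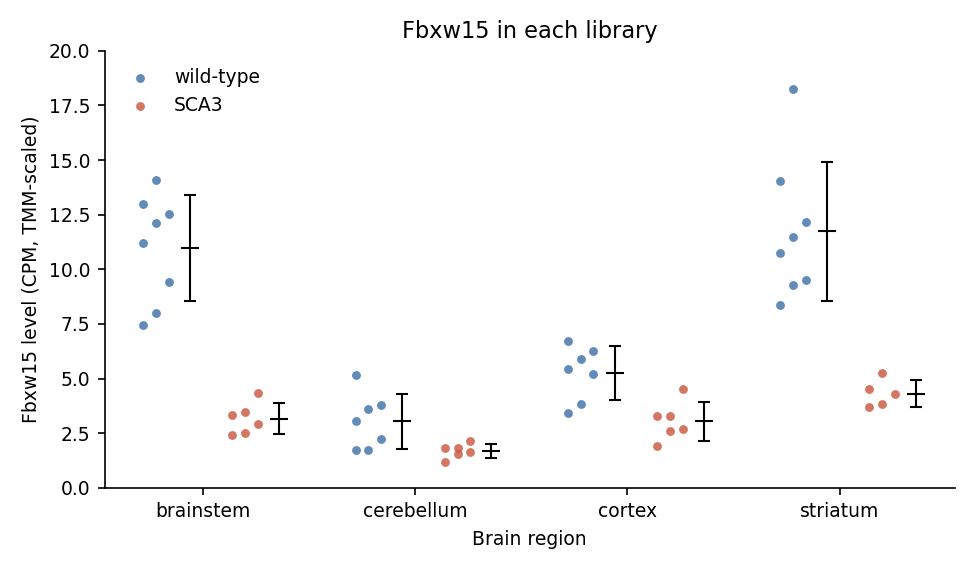
Fbxw15 level in CPM (y axis) in each library of the 4 brain regions (x axis), wild-type in blue and SCA3 in red; black marks show the mean with its SD. In brainstem and striatum all SCA3 libraries lie below all wild-type libraries (highest SCA3 values 4.35 and 5.23 CPM), whereas the groups overlap in cerebellum and cortex.

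The mouse numbers fall into 3 series, whose means are given as a description of the values that selected the gene. In brainstem the series with 3 wild-type and 2 SCA3 mice had means of 12.0 and 2.92 CPM, the series with 4 and 3 mice 11.1 and 3.23 CPM, and the single pair of mice 7.45 and 3.45 CPM. In striatum the corresponding means were 14.0 and 4.76 CPM, 10.9 and 3.77 CPM, and 8.36 and 4.53 CPM. The means of cerebellum (3.46 and 1.98, 2.85 and 1.55, 3.04 and 1.53 CPM) and of cortex (4.42 and 3.56, 6.02 and 3.08, 3.84 and 1.91 CPM) are given in the same order of series, wild-type first.

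Oligodendrocyte markers were on average lower in the same regions, and their part in the difference was not tested. The 12 mature oligodendrocyte markers, all of them in the table, summed to between 10790 and 22360 CPM in wild-type brainstem and to between 9788 and 16460 CPM in SCA3 brainstem. The mean ratio was 0.716 (exact two-sided permutation p = 0.035, 0.30 after adjustment over 52 such tests). In striatum the sums were 6919 to 20140 CPM in wild-type and 6368 to 9717 CPM in SCA3 libraries, with a ratio of 0.666 (exact p = 0.05, adjusted 0.30). The ratios were 0.849 in cerebellum and 0.937 in cortex. The 9 precursor markers had a higher mean in SCA3 brainstem (ratio 1.16, exact p = 0.0033, adjusted 0.087), and the 10 astrocyte markers a lower one (ratio 0.705, exact p = 0.015, adjusted 0.16). Neuron markers were lower in the mean of SCA3 brainstem as well (7 markers, ratio 0.891, exact p = 0.011, adjusted 0.16). The smallest p of all belonged to the single measured gene of the brainstem list, in striatum (ratio 0.557, exact p = 0.0031, adjusted 0.087). In wild-type mice that gene had a higher median in striatum than in brainstem. Of the 52 tests, 8 had an unadjusted p below 0.05 and 0 passed after adjustment.

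With the oligodendrocyte marker score as a covariate in fits of each region alone, the log2 fold change was -1.63 in brainstem, -1.26 in striatum and -0.76 in cortex. In cerebellum it shrank from -0.84 to -0.49. Without the 2 wild-type striatal libraries highest in thalamic markers, the striatal value was -1.31. These covariate fits were chosen after seeing the data.

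**Figure D3:**
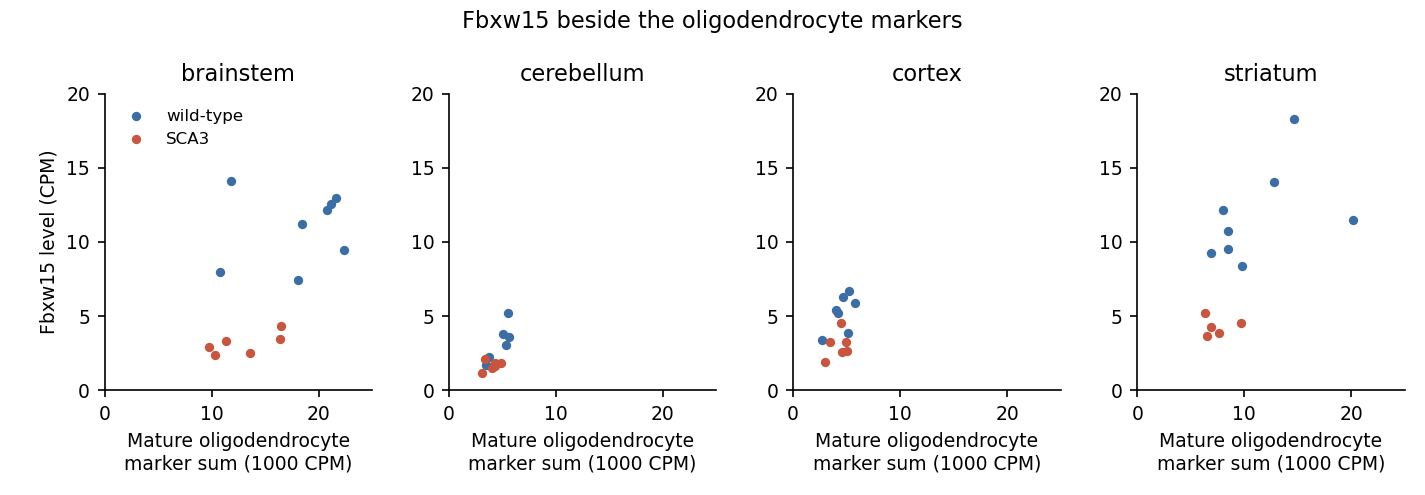
Fbxw15 level in CPM (y axis) against the summed CPM of 12 mature oligodendrocyte markers in units of 1000 CPM (x axis), 1 point per library and 1 panel per region, wild-type in blue and SCA3 in red. In brainstem the marker sums run from 10790 to 22360 CPM in wild-type and from 9788 to 16460 CPM in SCA3 libraries, and in striatum from 6919 to 20140 CPM and from 6368 to 9717 CPM.

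The transcripts that varied most like Fbxw15 were sought over the 53 libraries after subtracting the 8 group means, so that neither region nor genotype entered. The 5 highest Pearson correlations of log2 CPM were those of Mdga2 (0.71), A230001M10Rik (0.70), Pde8a (0.68), B3galt5 (0.68) and Tmc3 (0.68). Mdga2 encodes a synaptic adhesion regulator and Pde8a a cAMP phosphodiesterase. The mean of the mature oligodendrocyte markers reached 0.54, that of the precursor markers 0.53 and that of the striatal projection neuron markers 0.35. The astrocyte markers were at 0.20 and the neuron markers at -0.27. The single gene of the brainstem list, which did not mark brainstem here, reached 0.45. The other Fbxw genes ranged from -0.36 (Fbxw4) to 0.22 (Fbxw17). When only region means were subtracted, so that the genotype difference was kept, Tmc3 reversed to -0.65, Pde8a rose to 0.85 and the highest value was that of Il33 (0.90). On that scale the mature oligodendrocyte markers were at 0.63, the astrocyte markers at 0.53 and the gene of the brainstem list at 0.37. The striatal projection neuron markers were at 0.09 and the neuron markers at 0.04, whereas the precursor markers turned to -0.18. Libraries of a mouse share the animal and all values share the depth of their library, so these correlations are descriptions.

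The genes next to Fbxw15 were examined in the same way. Outside the cluster, the nearest measured genes were Plxnb1, a semaphorin receptor 432.7 kb away, and Nme6, a nucleoside diphosphate kinase 264.5 kb away on the other side. In brainstem their log2 fold changes were -0.09 and -0.07, and in striatum -0.21 (FDR 0.069) and -0.10 (FDR 0.46). None of the 5 nearest measured genes on either side was called in any region (smallest edgeR FDR over the 10 genes 0.069). Of all genes, 1.92% were called in brainstem, 0.0647% in cerebellum, 0.154% in cortex and 7.54% in striatum. A count of 0 among 10 genes lies near these shares. Their log2 fold changes ranged from -0.09 to 0.09 in brainstem and from -0.41 to 0.16 in striatum.

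Among the other 8 Fbxw genes only 1 regional comparison passed the test. Fbxw4 (dactylin, a gene linked to limb and ectodermal ridge development) was higher in SCA3 brainstem, the 1 call among 8 genes there, where 1.92% of all genes were called. Its wild-type brainstem libraries ranged from 17.02 to 23.8 CPM with a median of 20.6 CPM, and its SCA3 libraries from 23.1 to 29.9 CPM with a median of 24.2 CPM. The groups overlapped, with 5 of 6 SCA3 libraries above the highest wild-type library. The log2 fold change was 0.31 (SE 0.09, FDR 0.023). In the other regions Fbxw4 had log2 fold changes of 0.06 (cerebellum), 0.03 (cortex) and 0.08 (striatum).

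The size of the Fbxw4 difference was about the same without most single mice, but its FDR lay near the threshold. SCA3 mouse 9083514 held 29.9 CPM, the next library 24.8 CPM, and without that mouse the log2 fold change was 0.25 (FDR 0.24). Leaving out any of the SCA3 mice 7267054 and 9083515 or the wild-type mice 7267059, 9082857 and 9083371 gave log2 fold changes between 0.28 and 0.32 with an FDR between 0.052 and 0.057. With RIN as a covariate the value was 0.26 (FDR 0.10), in the largest number series alone 0.26 (FDR 0.22), and with the oligodendrocyte score as a covariate, in brainstem alone, 0.16 (FDR 0.24). RIN was between 6.3 and 7.6 in wild-type brainstem and between 7.4 and 8 in SCA3 brainstem, and its part in the difference was not tested otherwise.

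Fbxw5, which targets Tsc2 and the actin regulator Eps8, was the next in brainstem. Its wild-type libraries held 79.5 ± 5.42 CPM (SD, n = 8) and its SCA3 libraries 87.6 ± 4.56 CPM (n = 6), a log2 fold change of 0.14 (SE 0.07) that did not pass over all genes (FDR 0.33). Fbxw8, which pairs with Cul7 and acts at the Golgi and in dendrite growth, stood at 58.7 ± 3.4 and 63 ± 3.78 CPM (0.10, SE 0.06, FDR 0.44). Fbxw7 was the only gene of the 8 with a negative value beyond 0.2 in any region, 97.2 ± 14.7 CPM in wild-type and 82.6 ± 11.6 CPM in SCA3 brainstem (-0.23, SE 0.16, FDR 0.53). Its libraries overlapped widely, and the 95% confidence interval ran from -0.54 to 0.07.

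Of the 8 other genes, 0 were called in cerebellum, cortex or striatum by edgeR, where 0.0647%, 0.154% and 7.54% of all genes were called. None had an unadjusted p below 0.05 in these 3 regions, and the count stayed 0 under every alternative fit of them, DESeq2 and limma-voom included. Their log2 fold changes ranged from -0.13 to 0.11 in cerebellum, from -0.10 to 0.07 in cortex and from -0.06 to 0.14 in striatum. In cerebellum Fbxw11 (beta-TrCP2) stood at 241 ± 18.6 CPM in wild-type (SD, n = 7) and 259 ± 14.4 CPM in SCA3 libraries (n = 6). Its log2 fold change there was 0.11 (SE 0.06) and did not pass. The 95% confidence intervals of Fbxw2, Fbxw5, Fbxw8 and Fbxw11 were the narrowest, and that of Fbxw7 was the widest. In the combined test of a genotype difference in any region, 0 of the 8 genes passed against 4.73% of all genes, the nearest being Fbxw4 (FDR 0.092). None passed the test of dependence on region, which 0.218% of all genes passed (smallest FDR 0.63, Fbxw4).

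**Figure D4:**
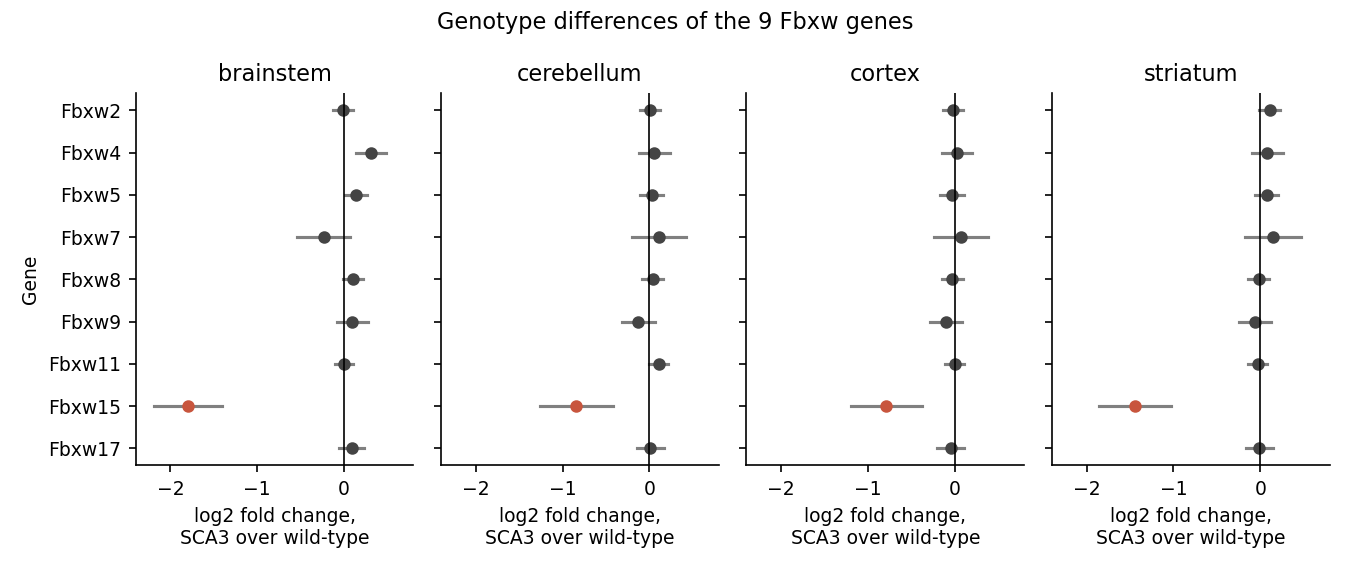
Log2 fold change of SCA3 over wild-type (x axis) for the 9 Fbxw genes (y axis) in 4 brain regions; points are edgeR estimates and grey lines 95% confidence intervals. Fbxw15 (red) lies between -1.80 and -0.79, whereas the other 8 genes lie between -0.23 and 0.31.

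Levels were then compared between regions within a genotype. Fbxw15 apart, the other 8 genes all differed between wild-type regions in a joint test with the mouse as a block, as did 93.1% of all genes. In SCA3 mice Fbxw4 was the exception among the 8 (FDR 0.074), and 93.6% of all genes passed. Per kilobase of exon, Fbxw11 was the most abundant in wild-type brain, between 35.5 ± 1.96 CPM per kb in striatum (SD, n = 8) and 55.6 ± 4.3 in cerebellum (n = 7). Fbxw5 followed, from 26.1 ± 1.78 in brainstem to 32.5 ± 3.02 in cortex. On the same scale Fbxw15 reached 7.85 ± 2.14 CPM per kb in striatum (n = 8), near Fbxw4 (7.89 ± 1.1) and Fbxw2 (7.41 ± 0.444), and fell to 2.04 ± 0.839 in cerebellum (n = 7). Fbxw9 and Fbxw17, both little characterised, stayed between 2.73 and 4.58 CPM per kb in each region.

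**Figure D5:**
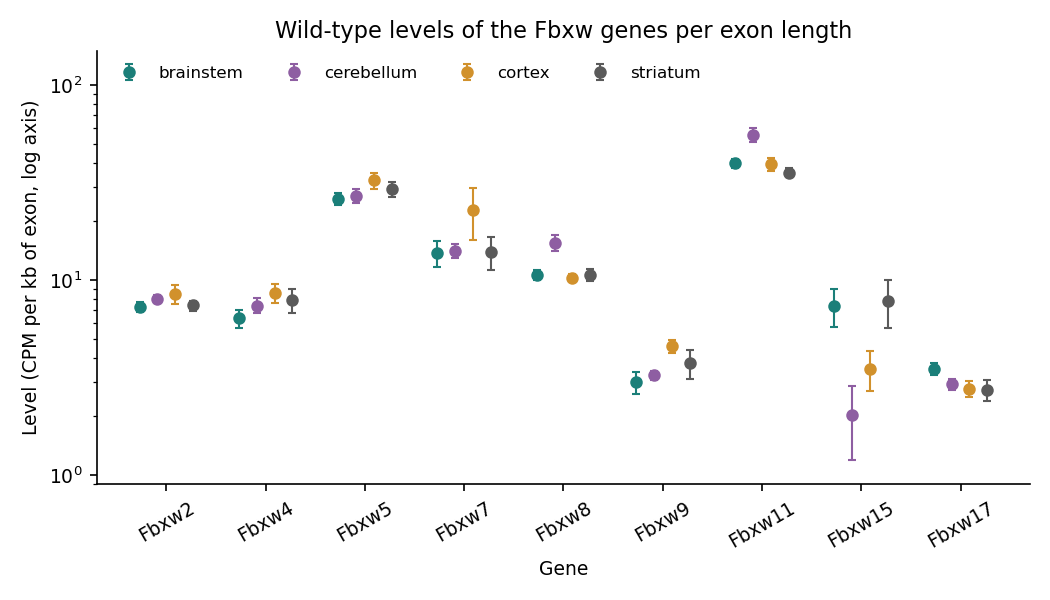
Wild-type levels of the 9 Fbxw genes (x axis) in CPM per kilobase of exon (y axis, log scale), with 1 point per region giving the mean and bars its SD over 7 or 8 mice. Fbxw11 is highest in each region, and Fbxw15 runs from 2.04 in cerebellum to 7.85 in striatum.

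A pair of genes was highest in cerebellum. Fbxw8 stood at 85.9 ± 8.09 CPM (SD, n = 7) there, against 56.8 ± 2.34 CPM in cortex, 58.7 ± 3.4 CPM in brainstem and 58.8 ± 4.46 CPM in striatum. It exceeded cortex by 0.58 on the log2 scale (SE 0.06, FDR 5.4e-22), while brainstem, cortex and striatum did not differ from each other (FDR of at least 0.68). Fbxw11 exceeded cortex by 0.50 (SE 0.06, FDR 2.8e-17) and striatum by 0.66 (SE 0.05, FDR 4.7e-32). Both genes kept this rank in SCA3 mice, with 88 ± 6.5 and 259 ± 14.4 CPM in cerebellum (n = 6).

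Another set had its highest mean in cortex. Fbxw9 reached 15.5 ± 1.2 CPM in wild-type cortex (SD, n = 7) and 10.2 ± 1.3 CPM in brainstem (n = 8), a log2 difference of brainstem minus cortex of -0.58 (SE 0.08, FDR 1.2e-12). Fbxw7, the tumour suppressor that targets cyclin E, Myc and Notch, differed by -0.73 (SE 0.12, FDR 1.1e-08). Fbxw5 (-0.31, SE 0.07, FDR 2.6e-05) and Fbxw4 (-0.41, SE 0.08, FDR 2.8e-07) were also lower in brainstem than in cortex, and Fbxw2, which targets the placental factor GCM1, by less (-0.20, SE 0.06, FDR 0.00093). Cortex did not pass against every other region for 3 of these genes: Fbxw2 did not pass against cerebellum (cerebellum minus cortex -0.06, SE 0.06, FDR 0.39), nor Fbxw4 and Fbxw5 against striatum (cortex minus striatum 0.10 and 0.15, FDR 0.29 and 0.096). Fbxw17 had the opposite order, being highest in brainstem (13.4 ± 0.991 CPM, n = 8) and lower in cortex (10.5 ± 0.995 CPM, n = 7; 0.33, SE 0.08, FDR 5.2e-05). Over the 6 pairs of wild-type regions between 3 and 6 of these 8 genes passed. The counts were 5 for brainstem and cerebellum (72.3% of all genes), 6 for brainstem and cortex (64.4%), 5 for brainstem and striatum (65.2%), 6 for cerebellum and cortex (68.4%), 3 for cerebellum and striatum (69.1%) and 4 for cortex and striatum (31.8%).

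Fbxw7 was the least even of the abundant genes. In cortex its 7 wild-type libraries ranged from 96.3 to 217 CPM with a median of 159 CPM, and its 6 SCA3 libraries from 116 to 242 CPM with a median of 151 CPM. The spread did not follow genotype (log2 fold change 0.07, SE 0.16). It went with the 7 general neuron markers, whose sum ran from 6164 to 9929 CPM over the cortical libraries. This relation was chosen after its values were seen. Pearson's r on the log2 scale was 0.97 and Spearman's rho 0.96 over 13 libraries, and it is given as a description with no test. Without the 2 libraries farthest from the median marker sum r was 0.96, and within wild-type and SCA3 libraries it was 0.96 and 0.99. When markers were taken as the mean of their log2 levels, r in cortex was 0.96 for the neuron markers, 0.95 for cortical glutamatergic, -0.66 for striatal projection neuron and -0.16 for oligodendrocyte markers. In brainstem, cerebellum and striatum r with the neuron sum was 0.76, 0.58 and 0.72, and 0.50, 0.38 and 0.34 without the 2 outermost libraries. Spearman's rho there was 0.67, 0.66 and 0.55, and r within a genotype lay between 0.55 and 0.86. On the mean log2 scale the brainstem r was 0.60 for neuron and 0.75 for oligodendrocyte markers.

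Of 41 SCF genes in the table, which covered subunits, neddylation factors, E2 enzymes and the COP9 signalosome, 0 were called by edgeR in any region, where 1.92% (brainstem), 0.0647% (cerebellum), 0.154% (cortex) and 7.54% (striatum) of all genes were. Their median log2 fold changes were -0.02 in brainstem, 0.00 in cerebellum, -0.02 in cortex and -0.02 in striatum, against 0.00 over all genes in each region. The adaptor Skp1a had -0.13 in brainstem (SE 0.08, FDR 0.49). The scaffold Cul1 and the RING protein Rbx1 stayed between -0.05 and 0.04 in the 4 regions. Cul7, the partner of Fbxw8, came nearest in striatum, at 48.5 ± 9.22 CPM in wild-type and 40.3 ± 1.27 CPM in SCA3 libraries (-0.27, SE 0.10, FDR 0.071).

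Among 45 other F-box genes, 3 were called, all in striatum (6.67%, against 7.54% of all genes). Fbxo44 was lower in SCA3 striatum (-0.34, SE 0.08, FDR 0.0037), from 92.9 ± 11.2 to 73.1 ± 6.89 CPM. Lmo7, a LIM domain and F-box protein, was higher (0.63, SE 0.21, FDR 0.044), with wild-type libraries at 198 ± 79.3 CPM and SCA3 libraries at 305 ± 38.7 CPM. Btrc, the beta-TrCP1 gene and the nearest relative of Fbxw11 in function, was not called, with log2 fold changes of 0.02 (brainstem), -0.03 (cerebellum), 0.00 (cortex) and 0.08 (striatum). The number of all genes called in striatum fell from 933 to 88 when its libraries were fitted alone, where 0 of these 45 were called.

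Of 37 genes for known substrates of these F-box proteins, 2 were called in brainstem (5.41%, against 1.92% of all genes), 5 in striatum (13.5%, against 7.54%), and 0 in cerebellum and cortex (0.0647% and 0.154% of all genes). Only RNA was measured, so the protein levels and the degradation of these substrates were not assessed. In brainstem Notch1, a substrate of Fbxw7, rose from 39 ± 4.09 to 53.3 ± 4.43 CPM (0.45, SE 0.08, FDR 4.1e-05). Nfkbia, which encodes the NF-kappa-B inhibitor degraded through beta-TrCP, rose from 11.1 ± 1.32 to 14 ± 1.94 CPM (0.34, SE 0.09, FDR 0.0091). In striatum Eps8 fell by 0.79 on the log2 scale (SE 0.20, FDR 0.0055) and Atf4 fell by 0.35 (SE 0.10, FDR 0.019). Irs1, an insulin receptor substrate, fell by 0.43 (SE 0.13, FDR 0.029), and Ccne1, which encodes cyclin E1, fell by 0.38 (SE 0.12, FDR 0.028). Dlg1, a synaptic scaffold, was the 1 of the 5 that rose in striatum (0.33, SE 0.09, FDR 0.0072). With each region fitted alone, 1 call was made over the 37 genes in all 4 regions together, in fits that called 392 (brainstem), 21 (cerebellum), 35 (cortex) and 88 (striatum) of all 12372 genes.

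The transcript of Kat7, the substrate described for Fbxw15, had log2 fold changes between 0.00 and 0.02 in the 4 regions. In brainstem it was at 107 ± 4.6 CPM in wild-type and 108 ± 5.47 CPM in SCA3 libraries (0.01, SE 0.05, FDR 0.96). Srebf1 had 0.24 in brainstem (SE 0.09, FDR 0.20), and Srebf2 ranged from -0.02 to 0.16. Neither was called in a region.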

How the data were processed

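The deposited values were raw read counts per gene for 53 libraries from 14 mice. According to the methods, the authors prepared poly-A libraries without strand information, trimmed paired reads, aligned them to GRCm38 with STAR 2.3.0e keeping unique alignments, counted them per RefSeq gene with HTSeq 0.6.1 (versions as in the submitters' processing notes) and kept genes above a minimum mean CPM. The lowest mean in the table was 4.07 CPM, and library totals of 31.7 to 76.7 M counts set the precision.

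Here edgeR 4.0.16 (R 4.3.3) was run on all 12372 genes with TMM scaling. A single negative binomial fit of the 8 region and genotype groups was followed by likelihood ratio tests, as in the study, with Benjamini-Hochberg adjustment over all genes (FDR below 0.05 called). CPM was scaled by TMM, and logs took a prior count of 2. Wild-type and SCA3 libraries were each compared between regions with the mouse as a block. Marker sums were compared by exact permutation tests (SciPy). Scripts were tested on simulated counts. SE values come from the fit, and intervals cover 95%.

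Same-numbered libraries come from the same mouse. Between 2 regions (12 or 13 mice), their deviations from the group mean had a mean r of 0.0904 to 0.186. Genotype does not vary within a mouse. Nothing further says that samples of a group were independent. The main genotype p-values come from the single fit of all libraries, which took libraries of the same mouse as independent. They rest on a spread pooled over the regions, not on that between mice within a region. The region comparisons, with the mouse as a block, rest on the spread left within mice. Fits of a region alone and the permutation tests of marker sums use the spread between the mice of that region.

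The members and gene lists were chosen with earlier results of these data known. The named genes are all Fbxw rows, Skp1a, Cul1, Rbx1, Cul7, Btrc, Kat7, Srebf1 and Srebf2, called list members with the smallest FDR, the nearest neighbours of Fbxw15 and its 5 most alike genes. Alternatives were the quasi-likelihood test, DESeq2 1.42.0, limma-voom 3.58.1 (with the mouse as random block, and without), RLE scaling, at least 10 counts per library (12337 genes), each region alone, RIN as a covariate, RIN of at least 7 (49 libraries), a thalamic marker score, the largest number series and leaving out each mouse. Protein sequences were not used here. The result of 1 called list gene is not reported here. Coding sequences came from GENCODE vM21 and were aligned with Biopython 1.88.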

Additional observations from a re-analysis of the deposited data

Results flagged for a closer look

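Each of the 72 groups of libraries (9 genes in 8 groups of region and genotype) was checked for a library far from the others by Dixon's test, which by chance marks about 1 group in 20. There were 3 such libraries. Fbxw4 in brainstem of SCA3 mouse 9083514 stood at 29.9 CPM, with the next SCA3 library at 24.8 CPM. Fbxw17 in cerebellum of the same mouse was lowest of its group at 9.27 CPM, with the next at 11.3 CPM. Fbxw4 in cortex of wild-type mouse 7267055 was lowest at 20.9 CPM, with the next at 26.7 CPM.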

How the results depend on the processing

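The 4 values of Fbxw15 kept their direction in each alternative run, ranging from -1.82 to -1.63 in brainstem, -0.87 to -0.49 in cerebellum, -0.97 to -0.76 in cortex and -1.53 to -1.26 in striatum. The gene was selected on these contrasts in these libraries, so the kept direction is a description and no further support. Leaving out a mouse gave -1.91 to -1.74, -0.94 to -0.67, -0.94 to -0.68 and -1.52 to -1.32. With the mouse as a random replicate block in limma-voom the values were -1.80, -0.78, -0.81 and -1.40, and no call of the other 8 genes changed. The brainstem call of Fbxw4 was made in 17 of 26 alternatives. The main fit called 238 of all genes in brainstem. The number of the 8 genes called there was 0 with RIN as a covariate (177 of all genes) and in the largest number series alone (242 of all genes). It was 2 (Fbxw5 and Fbxw8) with the oligodendrocyte score, a fit that called 1421 of all genes. Without a mouse it was 0 to 1, in fits that called 120 to 309 of all genes. The 8 genes other than Fbxw15 each differed between wild-type regions in each alternative, also with no replicate block (the share of all genes, 93.1%, was computed with the block only). Calls over 4 regions (0 SCF, 3 other F-box and 7 substrate genes) ranged from 0 to 3, 1 to 7 and 4 to 8 without a mouse. The fits without a mouse called between 297 and 1833 of all genes in striatum and between 120 and 309 in brainstem. The F-box and substrate calls numbered 0 and 1 with each region alone, 1 and 2 at a RIN of at least 7, 1 and 3 with the thalamic score, and 0 and 1 in the largest series. In these 4 fits the striatal calls over all genes fell from 933 to 88, 139, 87 and 30. As few as 64 reads in a cerebellar library supported Fbxw15, and its SE was 0.20 to 0.21 in the 4 regions.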

Other observations

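The other Fbxw genes also varied with each other. After the 8 group means were subtracted, the log2 levels of Fbxw7 and Fbxw2 correlated over the 53 libraries with a Pearson's r of 0.64, those of Fbxw7 and Fbxw11 with 0.57, and those of Fbxw4 and Fbxw5 with 0.55. Fbxw17 and Fbxw2 had the lowest value, -0.55. Libraries of a mouse share the animal, so these are descriptions across libraries that are not independent.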
